A study of Mus musculus with 6 samples.

Results

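CpG methylation of the 4 Hox gene clusters was examined in mouse neocortex at postnatal day 5 by reduced representation bisulfite sequencing (RRBS). In this assay MspI cuts DNA at CCGG and bisulfite turns unmethylated cytosines into uracil, so the methylation level of a CpG is the percent of its reads that still show cytosine. A CpG belonged to a cluster when it lay in the mm39 interval of Hoxa (chr6:52130000-52250000), Hoxb (chr11:96070000-96270000), Hoxc (chr15:102820000-102950000) or Hoxd (chr2:74490000-74600000). It also needed at least 10 reads, with both strands added, in at least 2 samples of each genotype. This gave 2606 CpGs, called members below, of 864621 autosomal CpGs that met the same coverage rule. Hoxa held 700 of them, Hoxb 695, Hoxc 598 and Hoxd 613. The intervals listed 4354 CpGs in any library, and 1790 had at least 10 reads in all 6 samples.

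The design set 3 samples labelled Chd8+/-, heterozygous at Chd8, which encodes a chromatin remodeller, beside 3 labelled wild-type (WT), all neocortex of the same age. The study asked how the DNA methylome changes in mouse models of a neurodevelopmental disorder tied to CHD8. The labels give neither the kind of Chd8 allele nor the strain or sex, and do not say that the replicates came from separate animals, so each p-value covers only the spread among the samples, which may be technical. Neocortex is a mixture of cell types, and a level is an average over them. The CpG level holds no expression marker, so the tissue label was not checked here.

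Hox genes encode homeodomain transcription factors that give cells of the trunk, limbs and hindbrain their position along the body axis. Genes at the 3′ end of a cluster act early and towards the head, and genes at the 5′ end act late and towards the tail. The clusters are rich in CpGs, are classic targets of Polycomb repression, and are silent in the forebrain, where the CpG islands of Polycomb targets are commonly free of DNA methylation.

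Summed coverage of the listed CpG cytosines was 45498222 to 54818138 in the WT libraries and 32285980 to 39820333 in the Chd8+/- libraries. Every WT library was thus deeper than every Chd8+/- library, so depth cannot be told apart from genotype. Over the 1790 Hox CpGs with reads in every sample, summed coverage ranged from 92084 to 148735, with a median of 45 reads per CpG and sample. A read that spans several CpGs is counted at each of them, so these sums are not numbers of reads. Replicate 3 of each group stood apart by its reads on chromosome X, at 2.58% and 2.56% of coverage against 1.18% to 1.21% in the other 4 libraries. The unconverted share of cytosines outside CpGs was 0.316% to 0.321% in WT and 0.327% to 0.348% in Chd8+/- samples, which sets a background for levels near 0.

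The coordinates of the tables follow mm39, and the RefSeq promoter sequences at hand follow GRCm38.p6. A promoter (250 bases before to 50 after the start of transcription) was therefore placed by the spacing of its CpGs. It was placed where every listed CpG in a window fell on a CpG of the sequence, with at least 5 matches and a lead of at least 3 over the next best place. Of 38 member genes, 22 had a promoter sequence. Of these, 8 could be placed with member CpGs: Hoxa5, Hoxa6, Hoxa11, Hoxd1, Hoxd9, Hoxd10, Hoxd11 and Hoxd12. Hoxd3 could be placed but held no member CpG. No Hoxb or Hoxc gene of the list could be placed. In each of the 3 clusters with placed promoters, the distances between them equalled those in RefSeq. In 4984 trials with promoters of other chromosomes, 1 passed the rule.

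The sequences below show which CpGs of 4 promoters were read, for the promoters at the lowest and the highest WT level (Hoxd9 and Hoxa11) and for the 2 other genes with the most member CpGs in their cluster (Hoxd11 and Hoxa6). They are RefSeq sequences of GRCm38.p6, 5′ to 3′ on the strand of the gene, and capitals mark the member CpGs. The listed CpGs of the Hoxd9 promoter lay at chr2:74527978-74528133 (mm39, plus strand gene) and those of Hoxd11 at chr2:74512422-74512706 (plus). Those of Hoxa11 lay at chr6:52222988-52223024 and those of Hoxa6 at chr6:52185726-52185882, both on the minus strand.
Hoxd9: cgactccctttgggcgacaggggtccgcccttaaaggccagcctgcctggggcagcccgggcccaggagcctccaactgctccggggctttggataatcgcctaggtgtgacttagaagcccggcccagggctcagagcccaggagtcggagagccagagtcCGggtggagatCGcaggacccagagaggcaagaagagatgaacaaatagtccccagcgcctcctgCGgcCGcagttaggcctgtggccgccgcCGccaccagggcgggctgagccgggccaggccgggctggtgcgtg
Hoxa11: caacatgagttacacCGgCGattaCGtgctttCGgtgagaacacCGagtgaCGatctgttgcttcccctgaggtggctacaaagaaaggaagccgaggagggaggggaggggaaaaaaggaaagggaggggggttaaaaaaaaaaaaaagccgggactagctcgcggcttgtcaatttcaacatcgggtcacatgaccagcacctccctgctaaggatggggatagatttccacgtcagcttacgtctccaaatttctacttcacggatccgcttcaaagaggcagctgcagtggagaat
Hoxd11: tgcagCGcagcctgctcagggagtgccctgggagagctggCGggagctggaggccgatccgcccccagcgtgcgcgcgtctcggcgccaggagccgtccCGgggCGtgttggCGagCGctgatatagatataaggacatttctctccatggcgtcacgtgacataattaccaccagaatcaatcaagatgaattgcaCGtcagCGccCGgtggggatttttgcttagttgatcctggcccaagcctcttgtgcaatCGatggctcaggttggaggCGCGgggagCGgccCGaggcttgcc
Hoxa6: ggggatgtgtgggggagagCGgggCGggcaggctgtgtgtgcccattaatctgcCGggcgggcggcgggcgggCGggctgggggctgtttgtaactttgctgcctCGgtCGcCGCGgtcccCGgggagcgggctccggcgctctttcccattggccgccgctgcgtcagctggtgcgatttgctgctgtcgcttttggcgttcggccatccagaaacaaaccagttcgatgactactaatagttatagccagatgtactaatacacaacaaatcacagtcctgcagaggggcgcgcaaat
The letters CCGG, the MspI site and its own reverse complement, occur in 52.8% of all RefSeq promoter sequences of this length. They occur in all 16 placed sequences of the 4 intervals, which include neighbouring non-coding genes and alternative starts, and in 19 of the 31 that were not placed.

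The placed Hox promoters were almost free of methylation in both genotypes. In all 8, every sample had a mean below 5%, and 30 of their 61 member CpGs had no methylated read in any sample. In Hoxa, the Hoxa5 promoter (8 CpGs; a gene needed for lung and axial patterning) had levels of 1.00%, 2.10% and 0.0% in WT and 3.35%, 1.26% and 3.72% in Chd8+/- samples. The Hoxa6 promoter (9 CpGs; thoracic axial patterning) had 1.53%, 0.146% and 0.862% in WT against 4.50%, 0.0% and 3.19% in Chd8+/-. For both genes the ranges of the genotypes overlapped. The Hoxa11 promoter (6 CpGs; forelimb and urogenital development) was the highest in WT, at 3.53%, 3.16% and 1.92%, with 1.9%, 0.679% and 3.24% in Chd8+/-. It was also the most deeply read, with 345 reads or more per CpG and sample.

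In Hoxd, whose 5′ genes pattern the digits and the urogenital tract, the Hoxd12 promoter (9 CpGs) had 1.09%, 2.44% and 2.61% in WT and 3.77%, 3.54% and 1.71% in Chd8+/-. The Hoxd11 promoter (14 CpGs) had 1.55%, 0.710% and 0.511% in WT and 0.476%, 0.0% and 0.0% in Chd8+/-. The Chd8+/- samples lay below all WT samples there, though the lowest WT (0.511%) and the highest Chd8+/- sample (0.476%) nearly met. Both values lay near the unconverted share given above. As at Hoxa6, Hoxd9 and Hoxd1, some CpGs had no listed reads in a sample, so sample means do not all cover the same CpGs. No test was run on this separation. At Hoxd10 (5 CpGs), 4 samples were at 0.0%, and WT replicate 2 and Chd8+/- replicate 2 were at 1.02% and 4.62%. At Hoxd9 (5 CpGs), no methylated read was seen in any sample. Hoxd1 (5 CpGs), the 3′ gene of its cluster, was at 0.465% in WT replicate 3 and at 0.0% in the other samples.

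**Figure D1:**
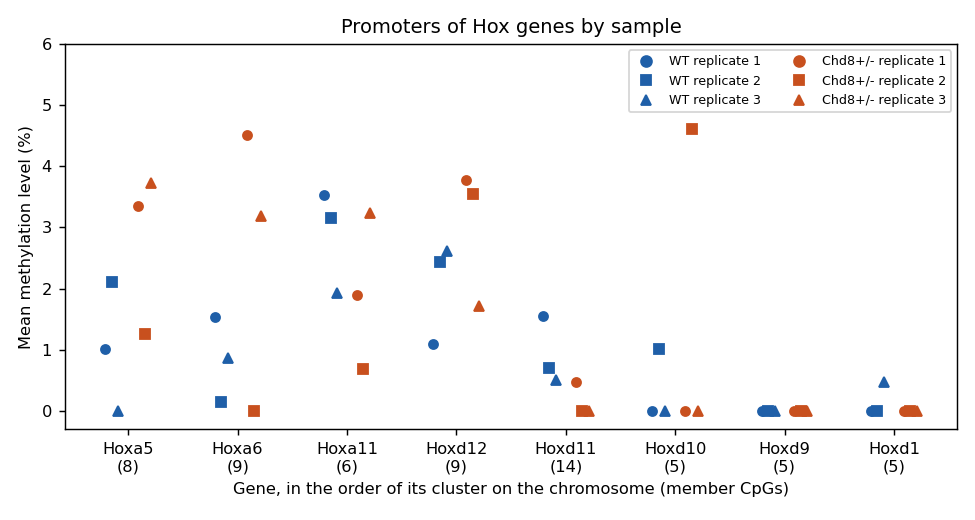
Mean methylation level (%) of the member CpGs in the 300-base promoter of each Hox gene that could be placed, 1 point per sample, WT in blue and Chd8+/- in orange, with the number of CpGs in parentheses. Every point lies below 5%, Hoxd9 is at 0.0% in every sample, and the highest point is Chd8+/- replicate 2 at Hoxd10 (4.62%).

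Other placed promoters in the intervals were also low. The antisense gene Hoxa11os, with 23 member CpGs, ranged from 0.0% to 2.44% over samples, and Hoxb3os, with 2, from 0.0% to 4.76%. Gm51876 in Hoxb (5 CpGs) ranged from 1.64% to 5.50%. Gm38462 in Hoxd had 2 placed starts, of 8 and 3 CpGs, at 0.0% in every sample with reads except WT replicate 3 at the first (5.77%). For comparison, 16 further genes were listed: neighbours Evx1 and Evx2, the Hox cofactors Pbx and Meis, the ParaHox genes and Polycomb subunits. Among them 14 had a sequence, and 4 could be placed with member CpGs on their chromosome. Of these, the cofactors Meis1 and Meis3 and the Polycomb subunit Suz12 stayed at or below 1.9% in every sample with reads. The cofactor Pbx2 reached 4.60% in WT replicate 3. Ezh2 (11 matches, next best 5) and Gsx1 (10, next best 4) reached the limits on matches and lead but were not counted as placed and gave no level.

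Across the clusters, 2461 of 2606 member CpGs (94.4%) had a WT mean below 10%, against 40.2% of the 862015 other autosomal CpGs. The WT mean over members was 2.12% in Hoxa, 3.97% in Hoxb, 2.40% in Hoxc and 2.05% in Hoxd, and 45.1% over the other autosomal CpGs. The median member was at 0.0% in each cluster. No methylated read in any sample was seen at 1134 members (43.5%), with a median of 148.5 reads each over the samples, which allows a level of up to 2.02% (3 reads of the total, counting error only). PCR reads without molecular identifiers are not independent molecules, so such limits cover counting error only. At the other end, 21 members had a WT mean of 50% or more: 1 in Hoxa, 18 in Hoxb, 0 in Hoxc and 2 in Hoxd.

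**Figure D2:**
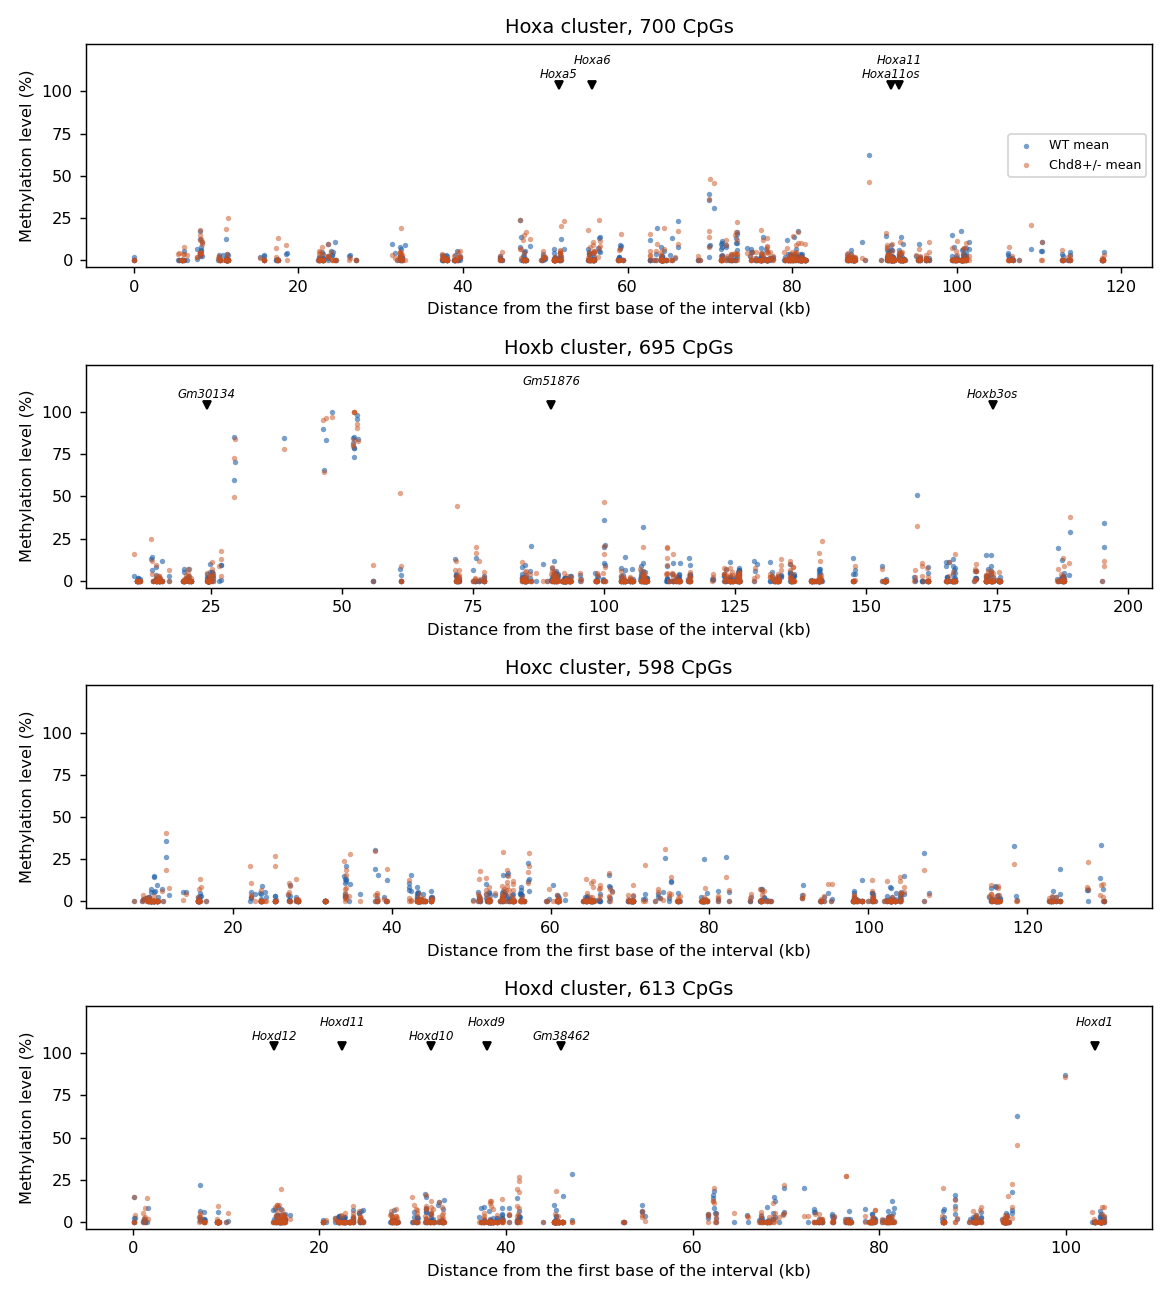
Methylation level (%) of each member CpG against its distance from the first base of the interval (kb), 1 panel per cluster, with the WT mean in blue, the Chd8+/- mean in orange and triangles at placed promoters. Nearly all points lie below 10%, and the high points of Hoxb form a block between Gm30134 and Gm51876.

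CpGs in CpG-poor sequence are usually methylated and those in CpG-dense sequence usually not. Members were therefore compared with other autosomal CpGs of the same density. Density is the number of listed CpGs up to 250 bp away, the CpG itself included. CpGs of the sequence that were not listed do not count, so a CpG classed as sparse can lie in dense sequence. The Hoxd9 promoter, for example, has 20 CpGs in its sequence, of which 11 were listed. Over CpGs with reads in all 6 samples, the Hox mean was lower in every class and in 6 of 6 samples. In the sparsest class (1 to 5 CpGs), the 304 Hox CpGs averaged 7.93% ± 0.438 (SD, n = 3) in WT and 8.06% ± 0.477 in Chd8+/-. The 268833 other CpGs averaged 69.5% ± 0.0607 and 70.3% ± 0.949. The difference within a sample was -61.9 points on average and lay between -63.2 and -61.1 points.

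With 6 to 10 CpGs nearby, the mean was 2.79% ± 0.453 in WT at the 389 Hox CpGs and 53.8% ± 0.00887 at the others. The average difference was -51.1 points. With 11 to 20, WT means were 1.73% ± 0.0833 and 16.8% ± 0.0325, a difference of -15.1 points. Above 20, they were 1.10% ± 0.116 and 2.03% ± 0.00575, a difference of -1.01 points. The size of the difference moved with the processing, in the densest class to -7.33 points weighted by reads and -1.53 with at least 20 reads. It was -0.389 with density counted within 500 bp on either side, where the class limits were doubled. With that last count the 2 middle classes stood at -34.0 and -3.84 points. The exact two-sided sign-flip permutation test over the 6 samples gave p = 0.03125 in each class (0.03125 adjusted over the 4 classes), the smallest value 6 samples allow. The 6 samples share these CpGs, so the test is over samples and not over loci. The difference was thus widest where listed CpGs were sparse. There 328 of 393 members (83.5%) were under 10% in WT, against 8.30% of other CpGs of that class. That share was 86.7% in Hoxa, 80.2% in Hoxb, 84.5% in Hoxc and 82.9% in Hoxd.

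**Figure D3:**
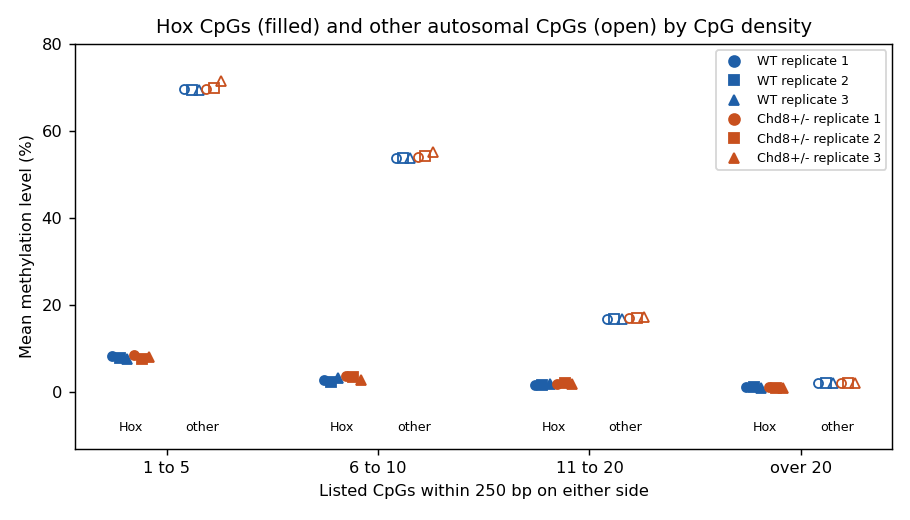
Mean methylation level (%) per sample of Hox CpGs (filled) and of other autosomal CpGs (open) in 4 classes of CpG density, with WT in blue and Chd8+/- in orange. Hox CpGs stay below 10% in every class, while other CpGs fall from 69.5% in WT in the sparsest class to 2.03% in the densest.

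Low CpGs ran on in stretches, defined as at least 5 neighbouring members with a WT mean under 10% each and gaps of at most 1000 bp. There were 121 of them in the 4 clusters, holding 2297 members (88.1%). The same rule put 36.0% of other autosomal CpGs into 15684 stretches. The median Hox stretch held 16 CpGs over 991 bp, and the median of the others held 16 CpGs over 605 bp. RRBS reads only fragments near CCGG, so a stretch ends at a gap in coverage as well as at a methylated CpG.

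The stretches with the most CpGs were in Hoxd. At chr2:74510399-74514664, 65 CpGs over 4267 bp took in the Hoxd11 promoter, with sample means between 0.591% and 1.87%. It ranked 37th by length and 223rd by number of CpGs among all autosomal stretches. At chr2:74527138-74531219, 63 CpGs over 4083 bp took in the Hoxd9 promoter, with sample means between 0.960% and 2.78%. This stretch ranked 45th by length and 255th by number of CpGs. In Hoxa, 62 CpGs at chr6:52221518-52223274 took in the promoters of Hoxa11 and Hoxa11os, and 34 lay at chr6:52167440-52169665. In Hoxb, the stretches were 57 CpGs at chr11:96160491-96163693 and 42 at chr11:96194028-96195942. In Hoxc they were 49 CpGs at chr15:102863129-102865041 and 37 at chr15:102921977-102924418. In these 6 stretches, no sample mean was above 3.54%.

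No member in CpG-dense sequence reached a mean of 50% in either genotype. Of 1696 members with over 10 listed CpGs within 250 bp, 0 had a WT mean of 50% or more. If the CpGs were independent, this would allow a share of up to 0.177%. Neighbouring CpGs share reads and are not independent, so that limit is only nominal. The share was 6.97% (21356 of 306209) among the other autosomal CpGs of that density. The highest in each cluster was at 17.6% in Hoxa, 31.7% in Hoxb, 25% in Hoxc and 16.3% in Hoxd. Only 2 reached 20% in the WT mean, and each had 2 WT samples with reads, of which 1 was high. At chr11:96177401 in Hoxb, WT replicate 2 was at 3.33% and replicate 3 at 60.0%, and Chd8+/- replicates 1 and 2 were at 0.0% and 40%. At chr15:102899256 in Hoxc, WT replicate 1 was at 50%, and WT replicate 3 and all Chd8+/- samples were at 0.0%. In the Chd8+/- mean, 11 dense members (0.649%) reached 20%, against 9.30% of the other CpGs of that density. The highest, chr11:96141880 in Hoxb, was at 0.0% in each WT sample and at 0.0%, 33.3% and 100% in Chd8+/-. At chr2:74531352 in Hoxd, WT samples were at 0.0%, 3.49% and 0.0%, and Chd8+/- samples at 35.3%, 45% and 0.0%. The genotypes overlapped at both CpGs.

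The methylated members of Hoxb lay almost all in a single block. Between chr11:96099404 and chr11:96123024, a span of 23.6 kb, all 17 members had a WT mean of 50% or more. The block was bounded by the values themselves, so its levels are a description. Its mean was 82.3%, 79.7% and 84.7% in the WT samples and 88.4%, 81.8% and 81.9% in the Chd8+/- samples. The genotypes overlapped. All 17 had 10 or fewer listed CpGs nearby, 11 of them 5 or fewer.

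The block lies between the placed promoters of Gm30134 and Gm51876. In RefSeq's order of genes this is the gap between Hoxb13, the 5′ gene that acts in the tail bud and prostate, and Hoxb9. Among its CpGs, chr11:96122836 was at 93.9%, 100% and 100% in WT and at 92.3%, 100% and 86.4% in Chd8+/-. The CpG at chr11:96123024, the most deeply read of the block with at least 85 reads in each sample, was at 79.6%, 87.1% and 85.3% in WT and 80.8%, 83.5% and 83.6% in Chd8+/-. The other 678 Hoxb members averaged 2.01% in WT and 2.03% in Chd8+/-.

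The remaining methylated members stood alone, with no other listed CpG within 250 bp. In Hoxd, chr2:74589863 was at 88.6%, 87.5% and 84.4% in WT and 100%, 72.2% and 84.6% in Chd8+/-. It lies before the Hoxd1 promoter, which was at or near 0. At chr2:74584789, levels were 63.2%, 76.2% and 49.1% in WT and 47.0%, 45.6% and 44.7% in Chd8+/-, with 133 to 226 reads in each sample. All WT samples were above all Chd8+/- samples at this CpG. The CpG was listed for its high WT mean, a choice that favours WT above Chd8+/-, so the separation is a description. No Hox CpG passed the genotype test. In Hoxa, chr6:52219328 varied between samples of both genotypes, with WT at 46.2%, 61.5% and 78.6% and Chd8+/- at 0.0%, 60.9% and 78.6%. In Hoxb, chr11:96229798 was at 27.4%, 61.1% and 64.1% in WT, and at 30.6% and 34.7% in Chd8+/- replicates 1 and 3.

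In bins of 10 kb, mean levels were low from end to end of 3 clusters. A bin mean can hide single sites. The Hoxd bin at 90 kb, at 3.53% in WT from 64 CpGs, holds the 2 methylated Hoxd members. They were the only members between chr2:74584281 and chr2:74592803. All 12 bins of Hoxa, all 13 of Hoxc and all 11 of Hoxd had a WT mean under 6%, with highest values of 3.95%, 5.50% and 4.18%. In Hoxb, 15 of 18 bins with at least 3 CpGs were under 6%. The other 3 were the bins at 40 and 50 kb, which hold most CpGs of the block (84.6% from 4 CpGs and 69.0% from 11), and the last bin (18% from 3). In Hoxd, the first bin, before Hoxd12, was at 1.89% and the last, with Hoxd1, at 0.871%.

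Sparse CpGs outside the intervals were higher. In the 200 kb before and after each interval, chosen after the levels were seen, CpGs of the sparsest class averaged 40.8% to 77.9% in WT. Inside, they averaged 5.08% to 11.8%. The lowest flanks were those after Hoxa, at 42.9% (43 CpGs), and after Hoxc, at 40.8% (80 CpGs).

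Over CpGs with reads in all 6 samples, Hoxb had the highest mean of the clusters in every sample. Its 501 CpGs averaged 4.14% over the samples, against 2.62% in Hoxc, 2.5% in Hoxa and 2.38% in Hoxd. Hoxb exceeded Hoxd by 1.76 points ± 0.299 (SD, n = 6), Hoxa by 1.63 ± 0.260 and Hoxc by 1.52 ± 0.131, each in 6 of 6 samples. The exact sign-flip permutation test gave p = 0.03125 for each, and 0.0625 adjusted over the 6 pairs, so none passed. The means of Hoxa, Hoxc and Hoxd differed by 0.241 points or less, with adjusted p of 0.25 (Hoxa and Hoxc), 0.225 (Hoxa and Hoxd) and 0.09375 (Hoxc and Hoxd) in the exact test. Weighted by reads, Hoxa minus Hoxc was -0.611 points and Hoxc minus Hoxd 0.467, and Hoxb was above each of the others, with an adjusted exact p of 0.0375 for each of these 5 pairs. Hoxa minus Hoxd was then -0.144 points. Leaving out every member with a WT mean of 50% or more in all 4 clusters, the means were 2.62% in Hoxc, 2.39% in Hoxa, 2.21% in Hoxb and 2.06% in Hoxd. Those CpGs were left out for their level, so this order is a description. Over CpG-dense CpGs alone, Hoxb was 0.321 points below Hoxa.

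The differences between genotypes in cluster means were under 1 point under every setting tried. Hoxa (464 CpGs) was at 2.46%, 2.41% and 2.28% in WT and 2.68%, 2.52% and 2.68% in Chd8+/-. Hoxd (429 CpGs) was at 2.23%, 2.24% and 2.28% in WT, and its Chd8+/- samples were at 2.43%, 2.71% and 2.38%. In both, every Chd8+/- sample was above every WT sample. The difference was 0.245 points ± 0.0733 (SE) in Hoxa and 0.257 ± 0.102 in Hoxd, each with p = 0.1 in the exact two-sided permutation test, the smallest value 3 samples against 3 allow, and 0.2 adjusted over the 4 clusters. The separation did not hold under all settings. In Hoxd the difference was 0.107 points with at least 20 reads (exact permutation p = 0.7) and 0.221 over all members (exact permutation p = 0.3). In Hoxa it was 0.487 points weighted by reads (exact permutation p = 0.2).

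Hoxb (501 CpGs) was at 4.23%, 3.73% and 4.16% in WT and 4.58%, 4.10% and 4.02% in Chd8+/-, and Hoxc (396 CpGs) at 2.77%, 2.39% and 2.60% against 2.84%, 2.60% and 2.51%. The groups overlapped in both, and the exact permutation p was 0.6 and 0.8. The other autosomal CpGs averaged 47.9% ± 0.0245 (SD, n = 3) in WT, against 48.5% ± 0.617 in Chd8+/-. The unconverted share was also higher in Chd8+/- samples, by values given above, and its part in the Hox differences was not tested. Within replicates 1 and 2 the differences were 0.169 points in Hoxa and 0.333 in Hoxd, and in replicate 3, which had more reads on chromosome X, 0.397 and 0.104. In replicate 3 the difference in Hoxb was -0.143 points and in Hoxc -0.0901. The Hoxb difference was 0.580 points with at least 20 reads and 0.875 weighted by reads, each with an exact permutation p of 0.1. It was 0.0353 without WT replicate 2 and 0.0180 without Chd8+/- replicate 1. The Hoxc difference was -0.0364 without WT replicate 2 and -0.0306 without Chd8+/- replicate 1.

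**Figure D4:**
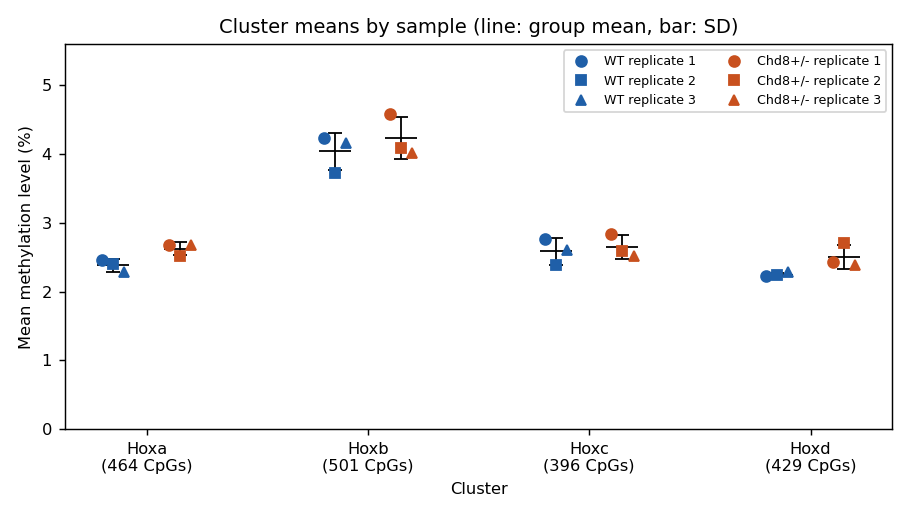
Mean methylation level (%) of each cluster by sample, over CpGs with at least 10 reads in all 6 samples, with group means as lines and SD as bars (n = 3). Hoxb lies above the other clusters in every sample, and WT and Chd8+/- points separate in Hoxa and Hoxd only.

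No single Hox CpG passed the genotype test. With edgeR's quasi-likelihood test over 609673 autosomal CpGs, 0.0% were called at an adjusted p under 0.05, and 0 of the 1472 Hox CpGs tested. At an unadjusted p under 0.05, 3.38% of all CpGs and 28 Hox CpGs passed. Of these, 24 were higher in Chd8+/- (background 2.03%) and 4 lower (background 1.36%). The limma test also called 0 at an adjusted p under 0.05, with 58 Hox CpGs at an unadjusted p under 0.05 (background 5.11%). With a common dispersion edgeR also called 0, with 95 unadjusted (background 3.02%). Fisher's exact test on pooled reads takes reads as replicates and called 262 Hox CpGs, where it called 24.8% of all. The median difference was -0.31 points over the Hox CpGs tested and 0.48 points over all, and the sign of the Hox median was not stable. It was 0.29 points with at least 20 reads, 0.60 without WT replicate 1 and -0.95 without Chd8+/- replicate 1. The 3 Hox CpGs with the smallest p were chr11:96182053, chr11:96182033 and chr6:52199965, each with an adjusted p of 0.951 in edgeR. The last, in Hoxa, was at 0.0%, 5.26% and 21.1% in WT and 87.0%, 56.5% and 0.0% in Chd8+/-, from 11 to 41 reads, and the groups overlapped.

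In windows of 1000 bp with at least 3 CpGs, edgeR called 0.051% of 102017 windows, 0.048% as higher in Chd8+/-. Of 231 Hox windows, 1 was called, as higher. This was chr11:96182001-96183000 in Hoxb, with 7 CpGs and read counts of 360 to 534 per sample, summed over the CpGs. A read that spans several CpGs is counted at each of them, so these counts are not independent reads. The WT samples stood at 0.375%, 0.0% and 1.38%, and the Chd8+/- samples at 16.4%, 14.2% and 3.68%. Every Chd8+/- sample was above every WT sample, by 10.9 points on average, with an adjusted p of 0.00387 in edgeR, while the exact permutation test of its means gave p = 0.1. The call was lost with limma (adjusted p 0.952) and in edgeR with a common dispersion (adjusted p 1). It was also lost in edgeR without WT replicate 1 (0.132), WT replicate 2 (0.0783), Chd8+/- replicate 1 (0.139) or Chd8+/- replicate 2 (0.0634). In windows of 2000 bp no Hox window was called. The call was kept without WT replicate 3 (adjusted p 0.0174), without Chd8+/- replicate 3 (0.000277) and with at least 20 reads (0.00447). With a sample left out the difference stayed between 8.38 and 14.7 points.

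The methylated reads of this window came from 5 CpGs within 46 bp, chr11:96182029 to chr11:96182074, which were read to near equal depth in each sample. Each had 61 to 80 reads per sample, so much the same reads may be counted at each. The CpG at chr11:96182053 was at 0.0% in each WT sample and at 28.4%, 19.0% and 11.1% in Chd8+/-, from 62 to 77 reads. The CpG at chr11:96182033 was at 2.70%, 0.0% and 0.0% against 18.4%, 32.8% and 8.82%. The other 2 CpGs of the window had no methylated read in any sample. The window lies between the placed promoters of Gm51876 and Hoxb3os, a region that runs in RefSeq's order from Hoxb9 to Hoxb4, genes of trunk and hindbrain patterning.

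**Figure D5:**
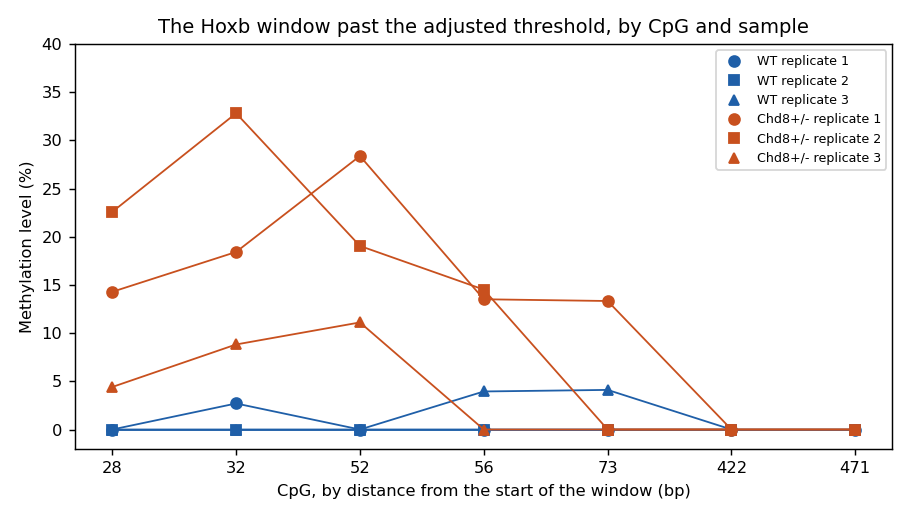
Methylation level (%) of the 7 CpGs in the called Hoxb window, ordered by distance from its start (bp, spacing not to scale), 1 line per sample, WT in blue and Chd8+/- in orange. At the first 3 CpGs every Chd8+/- sample lies above every WT sample, and at the last 2 all samples with reads are at 0.0%.

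The Hox windows with the next smallest p were not called. At chr15:102886001-102887000 in Hoxc (5 CpGs), levels were 0.0%, 1.41% and 0.913% in WT and 11.8%, 3.16% and 3.11% in Chd8+/- (edgeR adjusted p 0.752). At chr11:96230001-96231000 in Hoxb (4 CpGs), all WT samples were at 0.0% and Chd8+/- samples at 5.02%, 4.27% and 3.21% (edgeR adjusted p 0.779). In both, the groups did not overlap, and the exact permutation test gave p = 0.1, the smallest value 3 samples against 3 allow. Both windows were picked for a small genotype p, which favours separated groups, so the separation is a description. By direction, 53.2% of the Hox windows and 53.7% of all windows were higher in Chd8+/-. In Hoxa these were 35 of 55 windows, with 37 of 69 in Hoxb, 31 of 63 in Hoxc and 20 of 44 in Hoxd. At an unadjusted p under 0.05, edgeR gave 10 of the 231 Hox windows, against 5.42% of all windows. Of these, 8 were higher (background 3.63%) and 2 lower (background 1.79%). At the same threshold limma gave 17 (background 5.11%) and edgeR with a common dispersion 13 (background 3.57%). Fisher's exact test, pooling reads by genotype, called 69 Hox windows, against 33.6% of all.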

How the data were processed

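Methylation was measured in 6 neocortex samples by RRBS. Per the submitters' processing notes, Trim Galore 0.4.4, Bismark 0.20.0 and SAMtools 1.9 were used with build mm39. No source used here states their settings. The deposited tables list, per the file headers, the coverage of each CpG cytosine as a count of reads and the shares read as C and T in percent. No cytosine had fewer than 10 reads. The conversion rate outside CpGs is the authors' value. Methylated reads were coverage times percent, whole within 0.02 for over 99.9% of cytosines, and rounded. Strands were merged by adding reads.

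Members, intervals and lists were chosen with earlier results of these data known. Levels were unweighted means over CpGs. Groups were compared by exact permutation tests. Differential methylation was tested with edgeR 4.0.16 (quasi-likelihood, R 4.3.3) on methylated and unmethylated reads, with a coverage term per sample, over the whole table. CpGs at 0% or 100% in every sample were left out, and p-values adjusted by Benjamini-Hochberg at 0.05. The negative binomial dispersion was set to 0, after the common dispersion had been run without a call and had given too many small p-values near 0% and 100% on simulated data. Alternatives were limma 3.58.1, a common dispersion, Fisher's exact test, other coverage minimums, windows and densities, weighting by reads, the replicate block and each sample left out. Neither dispersion was set in advance, and 0 was chosen after the common dispersion had been tried on the data. In edgeR the Hox window call was made with 0 and not with the common dispersion. The cluster means without the Hoxb block or without members at 50% or more were added after the data were seen. Replicate 3 alone and the promoter placement limit were also added then. Named items were the 5 smallest p per direction among called Hox CpGs or windows (otherwise the 3 smallest), the 2 stretches with the most CpGs per cluster, and all placed promoters. No run of methylated CpG-dense sites existed to name. The text adds all members at 50% or more and the next windows. Gene positions in mm39 were not used here. Tables were handled in Python 3.11.15 with pandas 2.3.3.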

Additional observations from a re-analysis of the deposited data

How the results depend on the processing

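The comparison with other autosomal CpGs kept its direction in every class with 20 reads and with reads as weights. It also did so with density counted within 500 bp and class limits doubled, though the size in the denser classes moved. With 1 sample left out, the differences ranged from -62.1 to -61.6, -51.3 to -50.9, -15.1 to -15.0 and -1.04 to -0.950 points, in order of rising density. There 5 samples cannot give an exact p below 0.0625, so the threshold was out of reach.

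Between clusters, weighting by reads gave -1.51 (Hoxa minus Hoxb), -0.611 (Hoxa minus Hoxc), 0.901 (Hoxb minus Hoxc), 1.37 (Hoxb minus Hoxd) and 0.467 points (Hoxc minus Hoxd), all with an adjusted exact p of 0.0375, and reversed Hoxa minus Hoxd to -0.144. Over CpGs with over 10 neighbours the sign reversed for Hoxa minus Hoxb (0.321), Hoxa minus Hoxc (0.392), Hoxb minus Hoxd (-0.0323) and Hoxc minus Hoxd (-0.103). Without members at 50% or more in WT in any cluster it reversed for Hoxa minus Hoxb (0.184) and Hoxb minus Hoxc (-0.410), and Hoxb minus Hoxd was 0.149. Taking only the block out of Hoxb, while the other clusters kept theirs, gave 0.295, -0.410 and -0.169, which shows no order of the clusters. The causes were not tested. The order of the clusters depends on these settings.

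By genotype, the joined difference of 0.193 points ranged from 0.126 to 0.247 with a sample left out. Hoxa ranged from 0.194 to 0.296, Hoxb from 0.0180 to 0.297, Hoxc from -0.0364 to 0.156 and Hoxd from 0.157 to 0.318. Weighting by reads gave 0.487 in Hoxa, 0.875 in Hoxb, 0.439 joined and reversed Hoxc to -0.0497, and replicate 3 alone reversed Hoxb (-0.143) and Hoxc (-0.0901). Deviations of same-numbered samples correlated at 0.0367 to 0.0627 over the Hox CpGs and of differently numbered samples at -0.0745 to 0.0153. Over the Hox CpGs every same-numbered pair thus lay above every other pair, which comes from the data and not the design. Over all 534921 autosomal CpGs this did not hold. There same-numbered pairs stood at 0.00456, 0.000833 and 0.00233, within the range of the other pairs or just above it (-0.00662 to 0.00421). The labels state no pairing and no pair passed 0.1, so whether same-numbered samples share a litter or batch is not known. With the replicate block the cluster differences had exact p of 0.25 (Hoxa), 0.5 (Hoxb), 0.75 (Hoxc) and 0.25 (Hoxd), the smallest possible being 0.25. The block kept 0 Hox CpGs and 1 Hox window called, and moved CpGs at an unadjusted p under 0.05 from 28 to 17.

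Hox CpG calls were 0 with each edgeR and limma alternative and 262 (17.8% of those tested, against 24.8% of all) with Fisher's test, where reads of a genotype were pooled. Unadjusted counts were 58 with limma (3.94% of those tested, against 5.11% of all) and 95 with a common dispersion (6.45% against 3.02%). With a sample left out they were 14 to 29 (1.05% to 2.07%, against 2.43% to 2.79%). Hox window calls were 0 with limma, a common dispersion and windows of 2000 bp, and 0 to 1 with a sample left out. Fisher's test called 69 (29.9% of those tested, against 33.6% of all). Unadjusted window counts were 17 with limma (7.36% against 5.11%) and 5 in windows of 2000 bp (2.86% against 5.16%). They were 4 to 10 with a sample left out (1.75% to 4.37%, against 4.96% to 5.28%). Bins of 20 kb left 1 bin at 50% or more in place of 2. Dense methylated sites numbered 2 at a limit of 20% and 0 to 1 with a WT sample left out, and stretches 122 to 131. Other limits gave 91 to 151 stretches against 121. Depth limits single CpGs: at 45 reads the smallest step of a level exceeds 2 points.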
